A study of Mus musculus with 4 samples.

Results

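The replication-dependent histone cluster genes were taken as every gene whose symbol begins with Hist1h, Hist2h, Hist3h or Hist4h, which gave 67 of the 31053 genes in the count matrices. Of these, 54 are Hist1h genes on chromosome 13, 10 are Hist2h genes on chromosome 3, 2 are Hist3h genes on chromosome 11 and 1 is the Hist4h gene on chromosome 6. By type, 6 encode the linker histone H1, 18 encode H2A, 18 encode H2B, 12 encode H3 and 13 encode H4.

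These genes supply the histones that package newly copied DNA, so most of them are transcribed while a cell is in S phase. Their mRNAs commonly end in a short stem-loop in place of a poly(A) tail, and the stem-loop binding protein Slbp governs how the mRNA is made, used and destroyed. H2A, H2B, H3 and H4 form the nucleosome core and H1 binds the linker DNA between nucleosomes. Mki67, used below to mark cycling cells, encodes the proliferation antigen Ki-67. Replacement histones such as H2afz and H3f3b are made in the whole cell cycle from polyadenylated mRNAs.

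Mononuclear cells of the liver from C57BL/6 mice aged 8 to 10 weeks were profiled by single-cell RNA sequencing, with 1 library in each of 4 groups. The Naive library came from mice without injection of concanavalin A (ConA), a plant lectin that activates T cells and causes an acute hepatitis. The ConA+Veh library was taken 24 h after ConA with the vehicle, the ConA+TCDD library 24 h after ConA with TCDD at 10 µg/kg, and the ConA+FICZ library 24 h after ConA with FICZ. TCDD and FICZ are ligands of the aryl hydrocarbon receptor (AhR), the first a persistent pollutant and the second a photoproduct of tryptophan. The dose of FICZ and the number of mice behind each library are not given in the sources used here.

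The levels are histone UMIs (unique molecular identifiers, each standing for 1 captured mRNA molecule) per 1000000 UMIs of the same cells, written CPM. The brackets after a value hold its exact 95% interval (Poisson for a level, binomial for a share or a ratio), which covers counting error only. With no replicate libraries there is no test of a condition, and each difference is one between 2 libraries. ConA+TCDD and ConA+FICZ were both set against the same ConA+Veh library, so the comparisons share their control.

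The libraries held 2086 (Naive), 2779 (ConA+Veh), 1880 (ConA+TCDD) and 2555 (ConA+FICZ) cells, at a median of 2161 to 3984 UMIs per cell. Between 4 and 15 cell barcodes were shared by a pair of libraries. Cells were assigned to types by the summed level of marker genes, which left 2.11% to 14.2% of each library unassigned. The gate's own markers describe the assigned types and cannot test the labels. The T-cell receptor component Cd3e was detected in 63.1% of T or NK cells and 2.29% of the other assigned cells. The B-cell receptor component Cd79a was detected in 97.0% of B cells and 2.58% of the others. Between 38 and 250 cells per library lay near the assignment thresholds.

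At least 1 UMI was found for 64 of the 67 genes, and Hist2h2aa2, Hist1h2bq and Hist1h2ba had none. Hist2h2aa2 shares 100% of its 50-base stretches with other genes, Hist1h2bq 97.3% and Hist1h2ba 38.2%. Reads that match several genes are dropped in counting, so the lack of UMIs for Hist2h2aa2 and Hist1h2bq does not show that they were silent. In all, 45815 of 53299662 UMIs came from histone cluster genes, which is 860 CPM, and 6358 of 9300 cells (68.4%) had at least 1. The counts were unequal between genes: the 4 highest (Hist1h2ap, Hist1h2ae, Hist1h1e and Hist1h1b) held 49.6% of the histone UMIs and the 15 highest 84.2%, whereas 7 genes had 1 to 9. H2A genes gave 40.3% of the UMIs, more than H1 genes, and H4 genes gave 12.3%, H2B genes 10.2% and H3 genes 7.13%. The order is one of captured molecules and not of gene activity, since capture depends on how an mRNA ends.

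All 67 genes were found by identifier in the GENCODE M21 annotation of GRCm38 (the same assembly as mm10), and 62 have a single exon in every transcript. The histone stem-loop, searched as a 16-base core of 6 paired bases on each side of a 4-base loop, was present in the annotated transcripts of 46 genes (68.7%), and in 22 of the 30867 other measured genes (0.0713%). The core took 8 forms. The most common one, printed below for Hist1h2ap, was in 26 genes, and the one printed for Hist4h4 was in 7. The stem-loops of the genes on which the results below turn are printed 5′ to 3′ on the strand of the mRNA, with the core in capitals and up to 5 flanking bases in lower case.
Hist1h2ap: aaaaaGGCTCTTTTCAGAGCCatc
Hist1h3g: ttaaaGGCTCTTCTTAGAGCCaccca
Hist1h2ae: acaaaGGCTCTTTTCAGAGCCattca
Hist1h2bj: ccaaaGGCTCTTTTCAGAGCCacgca
Hist1h1e: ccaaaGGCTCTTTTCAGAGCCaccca
Hist1h1c: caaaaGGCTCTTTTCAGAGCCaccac
Hist1h4c: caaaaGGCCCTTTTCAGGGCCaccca
Hist4h4: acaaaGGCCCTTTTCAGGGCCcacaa
Hist3h2ba: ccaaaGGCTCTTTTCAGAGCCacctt
The genes differ in what is annotated after the stem-loop. The Hist1h2ap transcript ends 3 bases past it and that of Hist1h2bj 23 bases past it. By contrast 840 further bases are annotated for Hist1h1c, 1153 for Hist1h1e and 2445 for Hist4h4. No stem-loop was found within the annotated transcripts of the other 21 genes, among them Hist1h1b. Some of these transcripts are short, at 393 bases for Hist1h2ak, 381 for Hist2h2bb and 312 for Hist1h4k. A stem-loop past an annotated end would be missed, so these genes cannot be said to lack one.

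Promoter sequence was available for 61 of the 67 genes from RefSeq (GRCm38.p6), as 250 bases before and 50 after the start. The CCAAT box stood on either strand in 85.2% of these windows, against 37.4% of the 32851 windows of all genes. It was in the windows of all H1, H2A, H2B and H3 genes but in 3 of 12 H4 genes. The TATA box TATAAA was in 57.4% (13.6% of all windows). It and the 2 motifs that follow were also counted on either strand. The octamer ATTTGCAT was in 7 of 17 H2A and 6 of 16 H2B windows and in none of the other types (21.3% of the histone windows, 1.74% of all). The H1 box AAACACA was in 5 of 6 H1 windows and 14.8% of all histone windows, against 7.18% of all genes. H2A and H2B genes often stand head to head, so that neighbouring windows can hold the same bases. As examples, the windows of 2 H1 genes that behaved differently in the results below, Hist1h1b (chr13:21780576-21780875, minus strand) and Hist1h1c (chr13:23738557-23738856, plus strand), and of the H2A gene Hist1h2ae (chr13:23571171-23571470, minus strand) follow, 5′ to 3′ on the gene's strand. Capitals mark the 4 motifs, including their reverse complements.
Hist1h1b: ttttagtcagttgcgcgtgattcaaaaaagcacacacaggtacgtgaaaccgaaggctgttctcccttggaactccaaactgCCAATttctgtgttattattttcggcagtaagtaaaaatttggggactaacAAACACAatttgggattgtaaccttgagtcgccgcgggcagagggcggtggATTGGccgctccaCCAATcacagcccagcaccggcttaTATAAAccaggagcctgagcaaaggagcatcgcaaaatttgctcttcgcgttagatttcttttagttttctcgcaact
Hist1h1c: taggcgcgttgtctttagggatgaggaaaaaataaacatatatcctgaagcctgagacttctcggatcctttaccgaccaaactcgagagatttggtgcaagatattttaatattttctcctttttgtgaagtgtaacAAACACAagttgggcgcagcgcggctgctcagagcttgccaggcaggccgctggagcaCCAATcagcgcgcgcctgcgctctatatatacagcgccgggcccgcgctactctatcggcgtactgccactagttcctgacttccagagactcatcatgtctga
Hist1h2ae: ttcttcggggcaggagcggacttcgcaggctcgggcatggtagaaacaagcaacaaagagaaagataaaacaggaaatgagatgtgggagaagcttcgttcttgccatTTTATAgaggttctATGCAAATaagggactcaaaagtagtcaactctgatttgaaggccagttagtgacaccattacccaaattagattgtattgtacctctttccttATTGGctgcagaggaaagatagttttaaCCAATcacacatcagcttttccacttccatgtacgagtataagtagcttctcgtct
Hist1h1b and Hist1h1c both hold the H1 box and a CCAAT box. Hist1h1b has a TATAAA 28 bases before its start. The Hist1h1c window has no exact TATAAA but holds the stretch tatatata. Variants of TATAAA were not searched, so Hist1h1c cannot be said to lack a TATA box. The Hist1h2ae window holds an octamer as its reverse complement, ATGCAAAT. The H2B gene Hist1h2bg starts inside this window (base 23571396, plus strand), and which of the 2 genes the motifs serve was not tested.

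T or NK cells (T lymphocytes and natural killer cells gated together) had a higher histone cluster level in ConA+Veh than in the Naive library, before any background was subtracted. The summed level was 758 CPM (722 to 795) in the 716 Naive cells, 1272 CPM (1250 to 1294) in the 1135 ConA+Veh cells, 1218 CPM (1193 to 1244) in the 952 ConA+TCDD cells and 867 CPM (846 to 888) in the 828 ConA+FICZ cells. The ConA+Veh library was thus 1.68-fold above Naive, or 0.75 on the log2 scale (0.67 to 0.82). ConA+TCDD lay close to ConA+Veh, with a log2 ratio of -0.06 (-0.10 to -0.02), which was -0.46 with each cell thinned to 1000 UMIs. ConA+FICZ lay lower, with a log2 ratio of -0.55 (-0.60 to -0.51). Mki67 was detected in 2.79% of the Naive T or NK cells, 41.5% of those in ConA+Veh, 27.9% in ConA+TCDD and 22.8% in ConA+FICZ. Mki67-negative neutrophils, cells that have left the cell cycle, gave histone UMIs too, at 205 CPM in Naive, 706 in ConA+Veh, 519 in ConA+TCDD and 138 in ConA+FICZ, or 0.435, 1.82, 1.05 and 0.350 UMIs per cell. With their UMIs per cell subtracted from every cell, the log2 ratios in T or NK cells were 0.78 for ConA+Veh over Naive, 0.03 for ConA+TCDD over ConA+Veh and -0.36 for ConA+FICZ over ConA+Veh. With their CPM subtracted instead they were 0.04, 0.30 and 0.36. The Naive background rests on only 10 UMIs in 23 neutrophils (98.5 to 378 CPM), and that of ConA+TCDD on 45 UMIs in 43 neutrophils. The differences between libraries therefore depend on how this background is treated. A sum over cells cannot tell a larger share of cycling cells from more histone mRNA per cell.

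**Figure D1:**
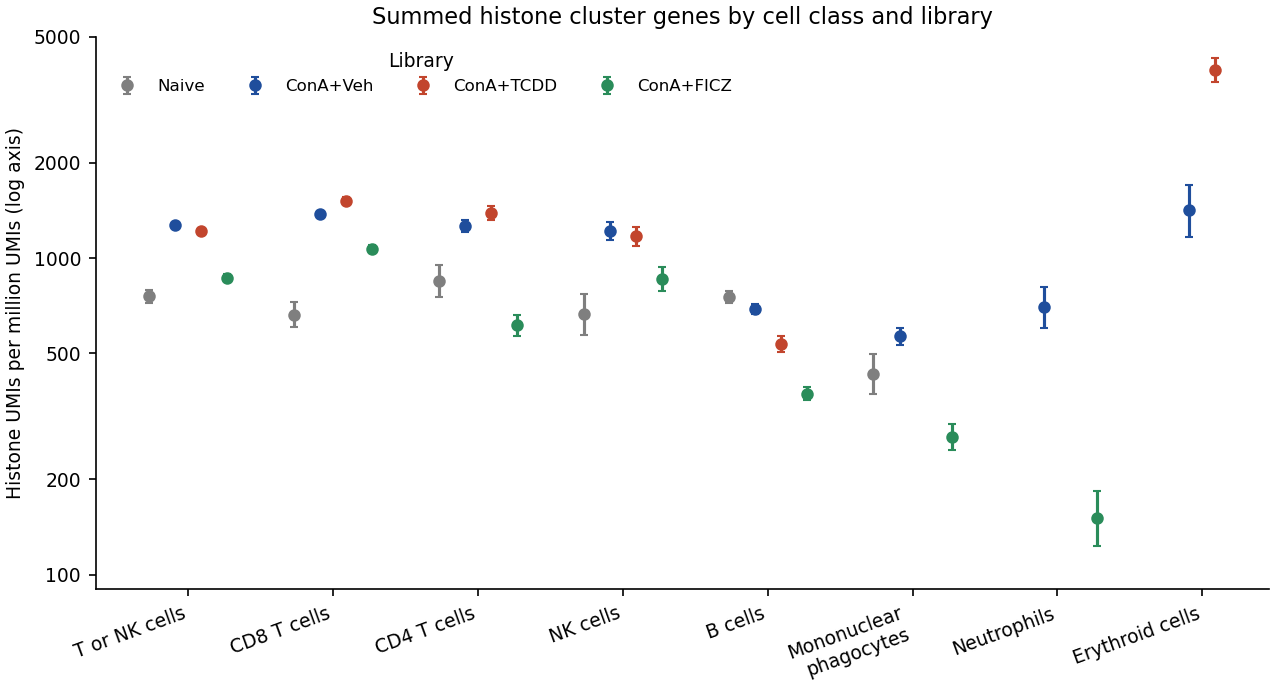
Summed level of the 67 histone cluster genes in CPM (log axis), by marker-gated cell type and library, with exact 95% Poisson intervals for counting error; CD8 T, CD4 T and NK cells are subsets of T or NK cells, and sets under 50 cells are not drawn. In T or NK cells ConA+Veh (1272 CPM) and ConA+TCDD (1218 CPM) stood above Naive (758 CPM), while in B cells the Naive library was highest (753 CPM), or ConA+Veh (677 against 620 CPM) without the top cell of each library.

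The levels in T or NK cells rested on few cells. The tenth of the cells with the most histone UMIs held 69.9% of the total in Naive, 52.9% in ConA+Veh, 68.6% in ConA+TCDD and 67.2% in ConA+FICZ. In the Naive library 5 cells held 656 UMIs, 38.6% of its total in T or NK cells, and the level was 491 CPM without them. The log2 ratio of ConA+Veh to Naive was 1.33 with the 5 top cells of each library left out. All 4 subsets were higher in ConA+Veh than in Naive: CD8 T cells went from 663 CPM in Naive to 1380 in ConA+Veh (log2 ratio 1.06), CD4 T cells from 847 to 1263 (0.58), NK cells from 664 to 1216 (0.87) and the other T or NK cells from 825 to 1064 CPM. In Naive 5 CD4 T cells held 70.5% of the subset's histone UMIs, and without the top 5 cells of each library the log2 ratio was 1.65 in CD4 T cells and 1.94 in CD8 T cells. In ConA+TCDD the CD8 T cells stood at 1519 CPM, the CD4 T cells at 1385, the NK cells at 1172 and the others at 679. In ConA+FICZ the level was 1067 CPM in CD8 T cells, 613 in CD4 T cells, 861 in NK cells and 609 in the others. CD4 T cells of ConA+FICZ and the other T or NK cells of ConA+TCDD and ConA+FICZ were thus below Naive. This order rested on few cells. Without the top 5 cells of each library, the other T or NK cells had 342 CPM in Naive, 542 in ConA+TCDD and 485 in ConA+FICZ. CD4 T cells then had 340 CPM in Naive and 337 in ConA+FICZ. The log2 ratio of ConA+FICZ to ConA+Veh in CD4 T cells was -1.04 (-1.17 to -0.92), or -1.66 without the top 5 cells.

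B cells showed another order. Their level was 753 CPM (721 to 786) in Naive, 691 CPM (667 to 714) in ConA+Veh, 537 CPM (507 to 569) in ConA+TCDD and 373 CPM (356 to 392) in ConA+FICZ, over 1092, 838, 409 and 789 cells. The log2 ratio of ConA+Veh to Naive was -0.12 (-0.20 to -0.04), and it turned to 0.13 when the 1 cell with the most histone UMIs was left out of each library. That Naive B cell alone held 378 histone UMIs of its 30541. Against ConA+Veh the log2 ratio in ConA+TCDD was -0.36 (-0.46 to -0.27), which turned to 0.11 with each cell thinned to 1000 UMIs. In ConA+TCDD 1 B cell held 84 histone UMIs of its 1531, and its part in this turn was not tested. At 1000 UMIs, 32.8% of B cells in ConA+TCDD and 41.7% in ConA+Veh had a histone UMI. Without the top cell of each library the unthinned levels were 498 and 677 CPM. In ConA+FICZ the log2 ratio to ConA+Veh was -0.89 (-0.97 to -0.80), or -0.28 with the neutrophil UMIs per cell subtracted. With the neutrophil CPM subtracted no B-cell ratio could be formed, since the ConA+Veh B cells lay below their neutrophils (691 against 706 CPM). Mki67 was detected in 0.366% of Naive B cells, 13.7% of those in ConA+Veh, 8.80% in ConA+TCDD and 6.46% in ConA+FICZ. Mononuclear phagocytes had 431 CPM in Naive, 566 in ConA+Veh, 708 in ConA+TCDD (47 cells) and 272 in ConA+FICZ. Without the 5 cells with the most histone UMIs in each library they had 226, 449, 377 and 146 CPM. ConA+TCDD then lay below ConA+Veh, but 5 cells are a larger part of its 47 cells than of the 245 in ConA+Veh. The cells left out held 64.1% of the histone UMIs in ConA+TCDD and 25.9% in ConA+Veh. This unequal trim cannot settle the order of the 2 libraries. Erythroid cells had 1416 CPM in ConA+Veh (65 cells) and 3921 in ConA+TCDD (86 cells), but 5 cells held 69.3% of the latter's histone UMIs. Without the top 5 cells of each library the levels were 1211 CPM in ConA+Veh and 1403 in ConA+TCDD.

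Detection of Mki67 divided the T or NK cells sharply. Cells with at least 1 Mki67 UMI had 3791 CPM in Naive (20 cells), 1647 in ConA+Veh (471 cells), 1998 in ConA+TCDD (266 cells) and 1646 in ConA+FICZ (189 cells). Cells without one had 406, 568, 350 and 250 CPM in the same order. The log2 ratio between them was 3.22 (3.08 to 3.36), 1.53 (1.47 to 1.60), 2.51 (2.42 to 2.60) and 2.72 (2.63 to 2.82), and it was above 0 in all 4 libraries. Mki67-positive cells carried 52.0%, 84.5%, 86.4% and 83.9% of the histone UMIs with 10.4%, 65.2%, 52.7% and 44.2% of all UMIs. They were also deeper, with a median of 10079 UMIs against 3316.5 in ConA+Veh and 15743 against 3659 in ConA+FICZ, and the part of depth in the ratio was not tested. When each cell was thinned to 1000 UMIs and Mki67 was called again on the thinned counts, the log2 ratios became 1.89, 0.77, 1.40 and 1.79. The split itself changed, since Mki67 was then detected in 18.3% of the ConA+Veh cells in place of 41.5%. These ratios therefore do not compare the same groups of cells at equal depth. Without the cells above 3 times the median UMIs the ratio in Naive was 0.17. B cells were divided in the same way, at 7845 against 569 CPM in Naive (4 positive cells), 1555 against 428 in ConA+Veh, 1514 against 343 in ConA+TCDD and 1365 against 178 in ConA+FICZ.

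**Figure D2:**
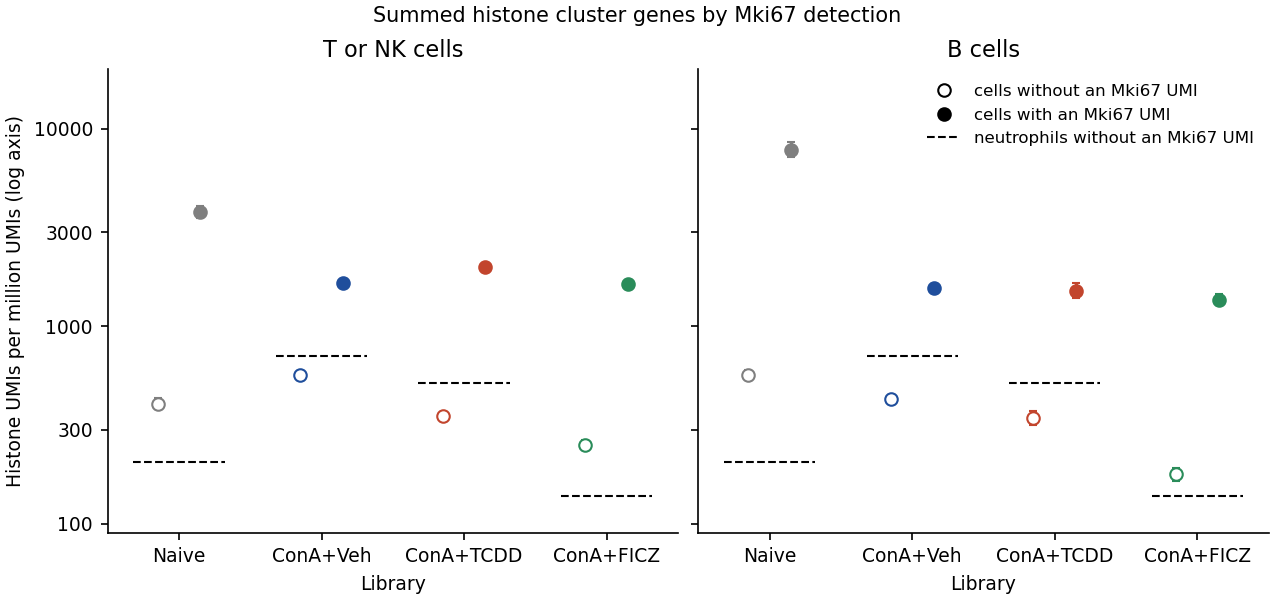
Summed histone cluster level in CPM (log axis) of T or NK cells (left) and B cells (right) with an Mki67 UMI (filled points) and without one (open points), by library, with exact 95% Poisson intervals and dashed lines for neutrophils without an Mki67 UMI. In T or NK cells Mki67-positive cells stand above Mki67-negative cells in all 4 libraries, from 1647 against 568 CPM in ConA+Veh to 3791 against 406 CPM in Naive, where only 20 cells were positive.

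Within the Mki67-positive T or NK cells ConA+FICZ was closer to ConA+Veh than over all cells, whereas ConA+TCDD was further from it. ConA+FICZ and ConA+Veh stood at 1646 and 1647 CPM, a log2 ratio of 0.00 (-0.05 to 0.05). ConA+TCDD was higher than ConA+Veh by 0.28 on the log2 scale (0.24 to 0.32). Within the Mki67-negative cells the log2 ratio to ConA+Veh was -0.70 in ConA+TCDD and -1.19 in ConA+FICZ. These low levels stand close to those of neutrophils. In CPM the Mki67-negative T or NK cells of ConA+Veh (568) and ConA+TCDD (350) and the Mki67-negative B cells of these libraries (428 and 343) lay below the neutrophils (706 and 519), and those of Naive and ConA+FICZ above. Per cell they lay above them, at 2.95 and 1.78 UMIs in T or NK cells and 2.20 and 1.64 in B cells against 1.82 and 1.05 in neutrophils, which had fewer UMIs in total (median 2244 against 3316.5 in T or NK cells of ConA+Veh). Mki67-negative NK cells were above neutrophils on both scales, with 957 CPM in ConA+Veh and 747 in ConA+TCDD. In B cells and in T or NK cells other than NK cells, Mki67-negative expression in ConA+Veh and ConA+TCDD cannot be told apart from background here.

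The share of cells with a histone UMI is given beside that of all neutrophils, including those with an Mki67 UMI. In ConA+TCDD the 1 such neutrophil held 45 of the 90 histone UMIs of its class. At 1000 UMIs per cell, 34.7% of T or NK cells in Naive, 60.2% in ConA+Veh, 45.2% in ConA+TCDD and 37.5% in ConA+FICZ had a histone UMI (58.1%, 93.1%, 77.0% and 67.8% before thinning). In neutrophils thinned in the same way the shares were 15.8%, 57.0%, 54.5% and 11.4%. Thinning left out 62 to 87 shallower T or NK cells and 4 to 34 neutrophils per library. ConA+FICZ stood above its neutrophils on this measure, ConA+Veh and ConA+TCDD did not stand apart from theirs, and the Naive neutrophils were only 19 cells. With at least 3 histone UMIs as the criterion, the shares were 3.82% of T or NK cells in Naive against 0 of 19 neutrophils (too few cells to bound the share closely), 16.8% against 3.49% in ConA+Veh, 11.2% against 6.06% (2 of 33) in ConA+TCDD and 9.87% against 0.439% in ConA+FICZ.

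T or NK cells were also grouped by which of 2 gene lists, S phase or mitosis, had more UMIs in each cell. The S phase list includes Pcna and Mcm2, and the mitosis list includes Top2a, Cdk1, Ccna2 and Birc5. The groups are named by list, and the phase of a cell was not tested. Cells with more mitosis UMIs had the higher histone level in all 4 libraries. The levels were 1823 against 1055 CPM in ConA+Veh, 2385 against 1081 in ConA+TCDD and 1832 against 650 in ConA+FICZ. In Naive, where the mitosis group was 3 cells, they were 3292 against 1021 CPM. The groups also differed in Mki67. In the same order of libraries, it was detected in 81.3%, 83.1%, 88.9% and 100% of the mitosis group. In the S phase group it was detected in 44.6%, 33.0%, 23.6% and 7.73%. Among Mki67-positive cells the gap narrowed to 1870 against 1480 CPM in ConA+Veh, 2456 against 1821 in ConA+TCDD and 1855 against 1486 in ConA+FICZ, and in Naive the order was reversed (3292 against 3898 CPM). Cells with under 2 UMIs of both lists had 361 to 958 CPM.

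The histone types differed in how far they followed Mki67. In T or NK cells the log2 ratio of Mki67-positive to Mki67-negative cells in Naive, ConA+Veh, ConA+TCDD and ConA+FICZ was 4.84, 2.37, 3.51 and 3.91 for H2A. It was 3.31, 1.57, 2.51 and 2.40 for H2B and 2.67, 0.99, 2.03 and 2.07 for H3. For H1 it was 1.57, 1.06, 2.03 and 2.49 and for H4 1.35, 0.79, 1.62 and 1.65. H2A had the highest ratio and H4 the lowest in every library.

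Gene by gene the range was wider. With the 4 libraries pooled, 50 genes had at least 30 UMIs in T or NK cells, of which 46 were higher and 4 lower in Mki67-positive cells. At least a 2-fold higher level was seen for 38 of them, against 5.52% of the 10753 genes with as many UMIs, and a 2-fold lower level for none, against 6.71%. Their median log2 ratio was 2.05, and that of all genes -0.03. By library, 12 of 14 genes were 2-fold higher in Naive (9.35% of all genes), 20 of 32 in ConA+Veh (6.66%), 26 of 29 in ConA+TCDD (8.05%) and 26 of 29 in ConA+FICZ (4.83%). The other histone genes had too few UMIs for a ratio, and a low gene reaches 30 UMIs more readily when 1 of the groups is high. The difference was not particular to the cluster. In the same pooled split, 20 of 20 genes of the mitosis list were at least 2-fold higher (median log2 3.92) and 16 of 20 of the S phase list (1.33). So were 4 of 9 replacement histones (0.33) and 7 of 16 genes that process or assemble histones (0.94).

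The H2A gene Hist1h2ap had the highest pooled ratio of the histone cluster genes with at least 100 UMIs (log2 4.38, 4.19 to 4.58). Its level was 356 CPM in Mki67-positive and 17.1 CPM in Mki67-negative T or NK cells. It was followed by the H3 gene Hist1h3g (14.7 against 1.21 CPM, log2 3.61) and by Hist1h2ae, also H2A (256 against 29.2 CPM, log2 3.13). The H1 gene Hist1h1b stood at 159 against 20.1 CPM (log2 2.98) and the H2B gene Hist1h2bj at 110 against 19.9 CPM (log2 2.47). At the other end were 3 genes whose interval spans 0: Hist3h2ba (H2B; log2 -0.42, -0.98 to 0.12), Hist4h4 (H4; 0.04, -0.38 to 0.47) and Hist1h4c (H4; 0.17, -0.16 to 0.49). The linker histone gene Hist1h1c was next, at 47.7 against 37.5 CPM (log2 0.35, 0.18 to 0.52), and Hist1h1e stood between at 180 against 61.2 CPM (log2 1.56). Hist3h2ba, Hist4h4, Hist1h4c, Hist1h1c and Hist1h1e are all annotated for over 100 bases past the stem-loop printed above, whereas Hist1h2ap ends 3 bases past it. Hist1h2ae, with 151 bases, is annotated past it too, as are Hist1h2ac (2010 bases, log2 2.79) and Hist1h1d (4884 bases, log2 2.06). Conversely, Hist1h3a (37 bases past it) had a log2 ratio of 1.15 and Hist1h4h (46 bases) 1.16. A relation of the ratio to the annotated end was not tested. The pooled ratio mixes libraries in which Mki67-positive cells held different shares of the UMIs, and the genes lowest in it were those highest in Naive. Taken library by library, from Naive to ConA+Veh, ConA+TCDD and lastly ConA+FICZ, this log2 ratio was 5.70, 3.87, 5.12 and 4.46 for Hist1h2ap and -0.44, 0.16, 0.59 and 1.10 for Hist1h1c. It was 1.33, 0.21, 0.72 and -0.21 for Hist4h4 and 0.79, 0.53, 0.05 and 0.26 for Hist1h4c, each with an interval that spans 0. Hist3h2ba had enough UMIs only in ConA+Veh (-0.52, -1.52 to 0.52).

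**Figure D3:**
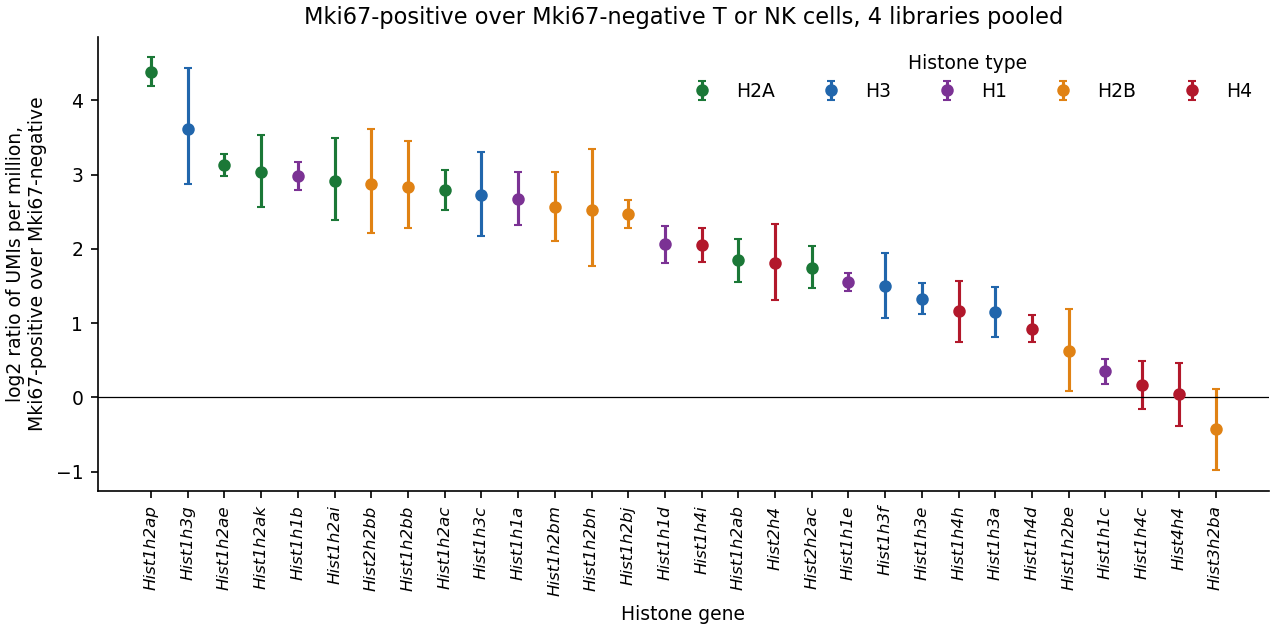
Log2 ratio of CPM in Mki67-positive over Mki67-negative T or NK cells, 4 libraries pooled, for the 30 histone cluster genes with at least 100 UMIs, with exact 95% binomial intervals and histone type by colour. Hist1h2ap lies highest at 4.38, and Hist4h4, Hist1h4c and Hist3h2ba lie around 0.

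Grouped by annotated end, among genes with at least 100 UMIs the 15 with at least 100 bases past the stem-loop had a median log2 of 1.50, from -0.42 to 3.13. The 10 genes with fewer than 100 bases past it had a median of 2.52, from 1.15 to 4.38, and the 5 without a stem-loop in their annotated transcripts a median of 2.92, from 2.67 to 3.03. With at least 30 UMIs the medians were 1.50 (19 genes), 2.44 (18 genes, from 0.28) and 2.67 (13 genes, from -0.64 to 3.30). These ranges overlap, and the 3 groups held 53.0%, 31.2% and 15.8% of the histone UMIs. Sequence shared between genes limits the single-gene values: 31 of the 67 genes have over 50% of their 50-base stretches in common with another gene. The share was 93.1% for Hist1h2ap, 43.2% for Hist1h2ae and 8.54% for Hist1h1c, so reads of Hist1h2ap may have been lost or assigned to its copies. It was 0 for Hist1h1b and Hist3h2ba.

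Between ConA+Veh and Naive all 5 histone types were higher in T or NK cells. The summed H1 level was 157 CPM in Naive, 365 in ConA+Veh, 377 in ConA+TCDD and 222 in ConA+FICZ, and its log2 ratio of ConA+Veh to Naive was 1.22. H2A stood at 325, 549, 514 and 331 CPM (log2 0.76), H2B at 91.9, 121, 108 and 139 CPM (0.40), H3 at 65.1, 84.3, 89.6 and 70.2 CPM (0.37) and H4 at 119, 152, 130 and 104 CPM (0.36). The order of the types rests on few Naive cells: without the 5 top cells of each library the log2 ratios were 1.37 for H1, 1.92 for H2A, 1.14 for H2B, 0.76 for H3 and 0.44 for H4. Neutrophils also had more H1 in ConA+Veh, at 275 CPM (71 UMIs) against 41.1 in Naive (2 UMIs). Their H2A stood at 209 CPM in ConA+Veh against 0 in Naive, H3 at 54.2 against 20.5 and H4 at 112 against 20.5. Neutrophil H2B was lower in ConA+Veh, at 50.3 CPM against 123 (6 UMIs) in Naive. H2B alone of the 5 types was higher in ConA+FICZ than in ConA+Veh, with a log2 ratio of 0.20 (0.08 to 0.32), against -0.71 for H1, -0.73 for H2A, -0.26 for H3 and -0.55 for H4. In Mki67-positive T or NK cells H2B stood at 254 CPM in ConA+FICZ and 158 in ConA+Veh, a log2 ratio of 0.69 (0.55 to 0.82).

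Of the 36 histone genes with at least 30 UMIs in the T or NK cells of ConA+Veh and Naive together, 26 were higher and 10 lower in ConA+Veh. A 2-fold higher level was found for 15, against 8.61% of the 9807 genes tested, and a 2-fold lower level for 4, against 15.5%. Their median log2 ratio was 0.57, beside -0.18 over all genes.

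Among the H1 genes, Hist1h1b had 16.5 CPM in the Naive, 115 in the ConA+Veh, 115 in the ConA+TCDD and 59.3 in the ConA+FICZ T or NK cells, a log2 ratio of ConA+Veh to Naive of 2.81 (2.33 to 3.32). Hist1h1a went from 4.46 CPM in Naive to 24.9 in ConA+Veh, 26.8 in ConA+TCDD and 18.3 in ConA+FICZ. Hist1h1d had 11.1, 36.9, 45.3 and 21.3 CPM and Hist1h1e 56.6, 146, 140 and 94.3 CPM in the same libraries. All of them were lowest in Naive. Hist1h1c was the exception, with 67.8 CPM in Naive against 42.1 in ConA+Veh, 50.1 in ConA+TCDD and 28.9 in ConA+FICZ, and a log2 ratio of ConA+Veh to Naive of -0.69 (-0.96 to -0.41). Hist1h1t, best known from the testis, had 5 UMIs in all cells.

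Among the H2A genes, Hist1h2ap had 191 CPM in Naive, 220 in ConA+Veh, 242 in ConA+TCDD and 104 in ConA+FICZ T or NK cells. Its log2 ratio of ConA+Veh to Naive was 0.21 (0.06 to 0.36), and 287 of its Naive UMIs came from the 5 cells with the most histone UMIs. Hist1h2ae had 51.7, 182, 135 and 136 CPM, and Hist1h2ab, with 4.46, 33.8, 23.2 and 12.3 CPM, had the largest log2 ratio of the genes with at least 100 UMIs (2.92, 2.02 to 3.99). Both were lowest in Naive and highest in ConA+Veh. Hist1h2ac stood at 30.3, 45.6, 45.1 and 35.2 CPM, Hist2h2ac at 16.5, 27.6, 26.7 and 14.0 CPM and Hist1h2ak at 5.35, 16.4, 17.9 and 11.5 CPM.

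The H2B gene Hist1h2bj had 24.1 CPM in Naive, 69.5 in ConA+Veh, 56.1 in ConA+TCDD and 83.9 in ConA+FICZ T or NK cells, so that it was highest in ConA+FICZ. Hist3h2ba had 11.1, 3.73, 3.93 and 3.54 CPM and was highest in Naive. Among the H3 genes, Hist1h3e had 29.9, 38.4, 35.8 and 32.3 CPM and Hist1h3g had 2.23, 9.68, 8.81 and 7.33 CPM. Among the H4 genes, Hist1h4d had 21.0, 57.0, 39.6 and 27.1 CPM and Hist1h4i 25.0, 46.2, 38.6 and 37.1 CPM, both lowest in Naive. Hist4h4 (13.8, 5.44, 6.91 and 7.07 CPM) and Hist1h4c (18.7, 11.2, 11.4 and 10.5 CPM) were highest in Naive. The 4 genes at least 2-fold lower in ConA+Veh than in Naive were Hist3h2ba (log2 -1.58), Hist4h4 (-1.34), Hist2h2bb (-2.79) and Hist2h2aa1 (-2.31), and the last pair were named after their values were seen. Of the 50 Hist2h2bb UMIs in Naive, 41 came from 5 cells.

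**Figure D4:**
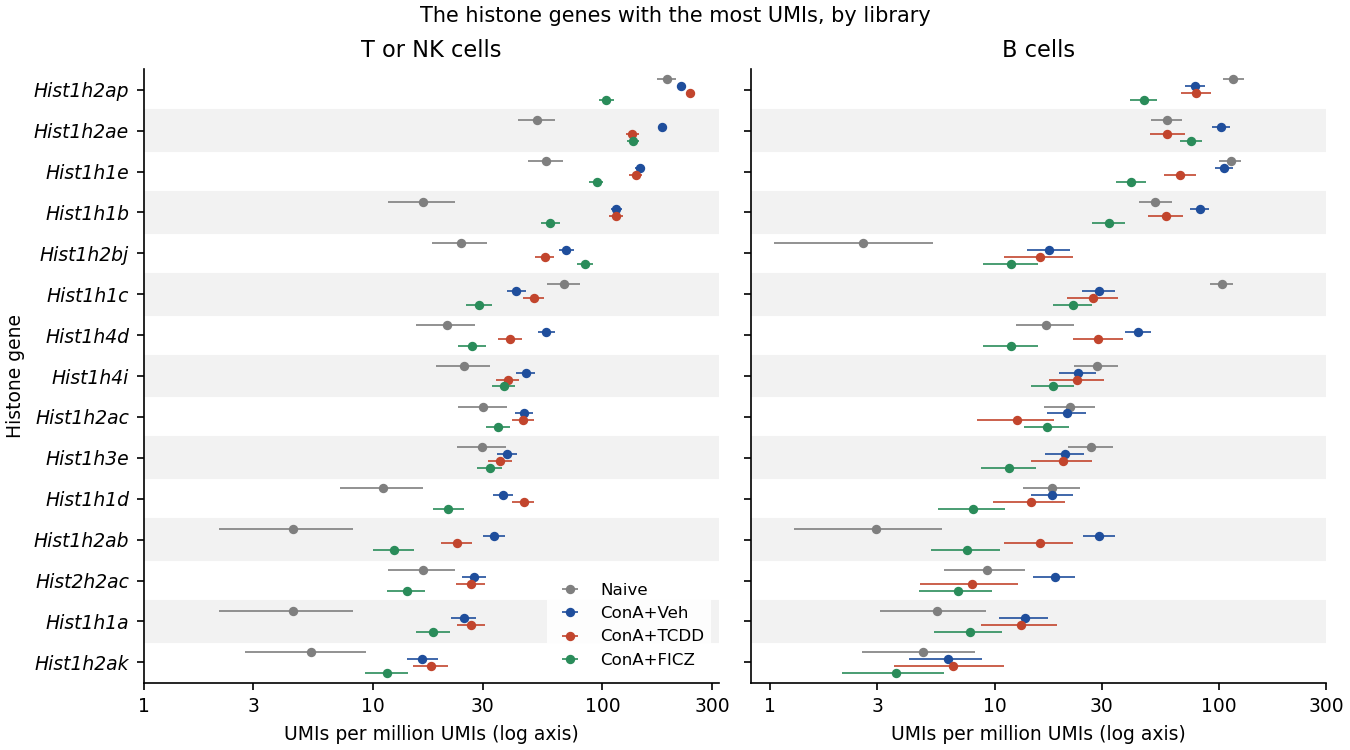
Level in CPM (log axis) of the 15 histone cluster genes with the most UMIs in T or NK cells (left) and B cells (right) of each library, with exact 95% Poisson intervals. Hist1h1b stands at 16.5 CPM in Naive and 115 CPM in ConA+Veh, whereas Hist1h1c is highest in Naive (67.8 CPM) in T or NK cells and in B cells (103 CPM).

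Between ConA+TCDD and ConA+Veh few single genes lay far apart in T or NK cells. Of 42 genes with at least 30 UMIs, 2 were at least 2-fold higher (0.743% of all 10097 genes) and none was 2-fold lower (1.30%). The 2 were Hist1h3i (30 against 14 UMIs) and Hist1h2af (27 against 12 UMIs), both named after their values were seen. The median log2 ratio was 0.03, beside -0.04 over all genes. Among the named genes Hist2h4, an H4 gene, was higher (9.49 against 5.64 CPM, log2 0.75, 0.22 to 1.28), as was Hist1h3a (16.0 against 12.1 CPM, log2 0.40). The lowest log2 ratios were those of Hist1h2ab (log2 -0.54, -0.82 to -0.27), Hist1h4d (-0.53, -0.74 to -0.32) and Hist1h4h (-0.51, -0.98 to -0.05).

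In Mki67-positive T or NK cells alone, 38 genes could be compared between ConA+TCDD and ConA+Veh. Of these 33 were higher and 5 lower, with a median log2 ratio of 0.31 beside -0.02 over all genes. At least 2-fold higher were 3 (0.473% of all genes) and lower none (1.31%). By type the log2 ratio was 0.40 for H1, 0.25 for H2A, 0.16 for H2B, 0.45 for H3 and 0.09 for H4. Hist1h2ap stood at 448 CPM in ConA+TCDD and 326 in ConA+Veh (log2 0.46, 0.37 to 0.55), and Hist1h1d had a log2 ratio of 0.78. Hist1h2ae went slightly the other way (-0.12).

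Between ConA+FICZ and ConA+Veh the genes were mostly lower in T or NK cells. Of 39 genes, 1 was at least 2-fold higher (1.06% of all 10126 genes) and 5 were 2-fold lower (1.62%), with a median log2 ratio of -0.40 beside 0.00 over all genes. The 5 were Hist1h2ab (log2 -1.46, -1.80 to -1.12), Hist1h4h (-1.21), Hist1h4k (-1.09, 13 against 36 UMIs), Hist1h2ap (-1.08, -1.20 to -0.96) and Hist1h4d (-1.07). The higher gene was Hist2h2bb (62 against 32 UMIs, log2 1.33), which like Hist1h4k was named after its values were seen. Hist1h2bj, an H2B gene too, had a log2 ratio of 0.27 (0.11 to 0.43). In Mki67-positive cells 1 of 36 genes was at least 2-fold higher (0.876% of all genes) and none 2-fold lower (2.54%), and the median was 0.14 beside -0.02. There Hist1h2bj stood at 155 CPM in ConA+FICZ and 93.3 in ConA+Veh (log2 0.74, 0.56 to 0.91), Hist2h2bb at 16.9 and 4.02 CPM (2.07) and Hist1h2ap at 223 and 326 CPM (-0.55, -0.67 to -0.43). Hist1h2ae stood at 288 and 250 CPM (0.21), so the H2A genes lay on both sides of ConA+Veh.

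**Figure D5:**
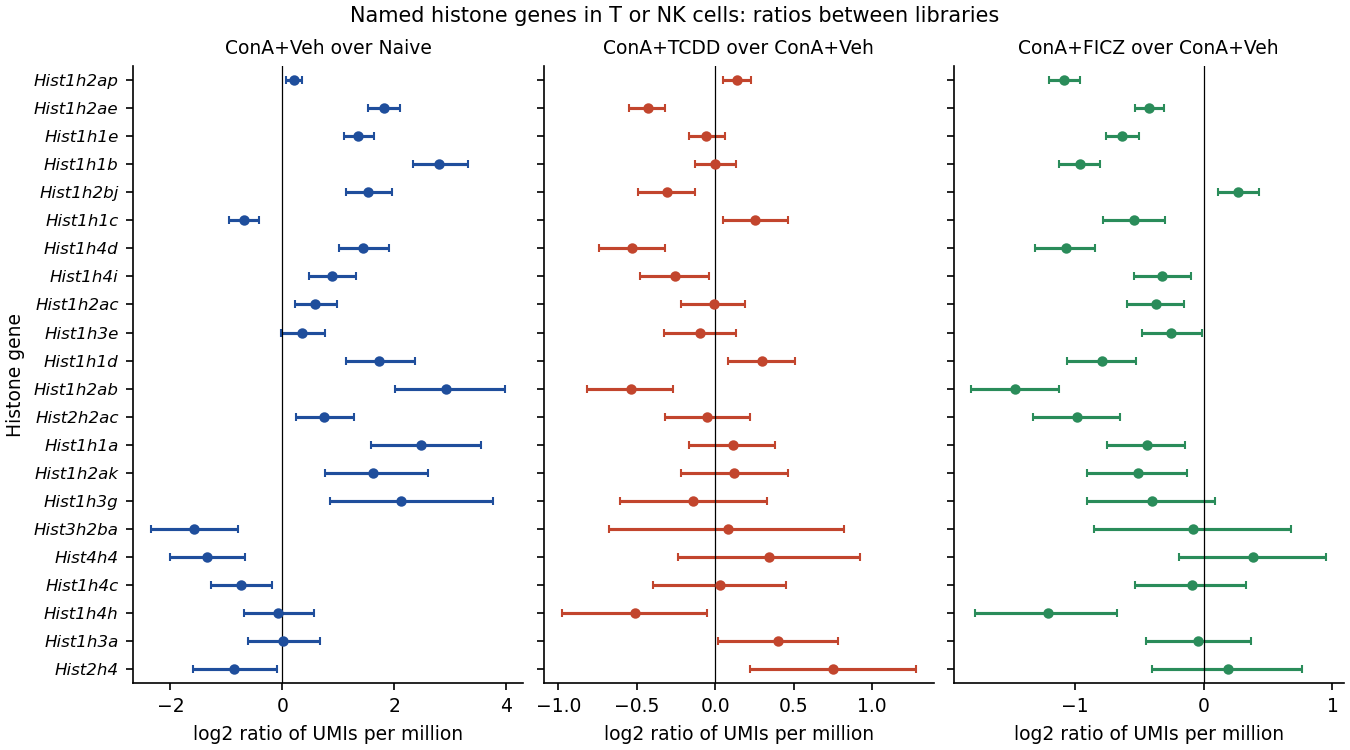
Log2 ratio of CPM between libraries for the named histone cluster genes in T or NK cells, with exact 95% binomial intervals and a separate scale in each panel. Against ConA+Veh most genes lie near 0 in ConA+TCDD and below 0 in ConA+FICZ, where Hist1h2bj lies above 0 at 0.27.

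In B cells the single genes went in both directions after ConA. Of 25 genes, 5 were at least 2-fold higher in ConA+Veh than in Naive (7.64% of all genes) and 7 were 2-fold lower (17.9%), with a median log2 ratio of -0.05 beside -0.28 over all genes. Hist1h1c had 103 CPM in Naive, 29.1 in ConA+Veh, 27.6 in ConA+TCDD and 22.4 in ConA+FICZ, a log2 ratio of ConA+Veh to Naive of -1.83 (-2.13 to -1.53). Hist1h1b had 52.1, 82.3, 58.1 and 32.4 CPM and Hist1h2ab 2.96, 29.3, 15.9 and 7.53 CPM. Hist1h1c was thus highest and Hist1h2ab lowest in Naive, as in T or NK cells. Hist1h2ap had 116, 78.1, 79.2 and 46.3 CPM and Hist1h1e 113, 105, 67.4 and 40.6 CPM. In Naive the 5 B cells with the most histone UMIs held 118 UMIs of Hist1h1b and 130 of Hist1h2ap. The Naive levels of these 2 genes, and their differences from ConA+Veh, thus rest in part on few cells. Between ConA+TCDD and ConA+Veh, 1 of 21 genes was 2-fold higher (0.980%) and 2 were lower (2.43%), with a median of -0.32 beside 0.03. The 2-fold higher gene was Hist1h4c (19 against 17 UMIs, in the shallower library), and the lower ones were Hist2h2ac (-1.22) and Hist1h3f (-1.07), the latter named after its values were seen. Between ConA+FICZ and ConA+Veh none of 23 genes was 2-fold higher (1.68%) and 10 were 2-fold lower (1.65%), with a median of -0.82 beside 0.04. Among them were Hist1h2ab (-1.96), Hist1h4d (-1.88), Hist2h2ac (-1.44), Hist1h1e (-1.37) and Hist1h1b (-1.34).

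The neutrophils, here including those with an Mki67 UMI, put these single-gene levels in proportion. In the ConA+Veh library Hist1h1e had 116 CPM in neutrophils (30 UMIs) beside 146 in T or NK cells, and Hist1h1b had 108 (28 UMIs) beside 115. Hist1h2ae had 89.0 CPM (23 UMIs) beside 182, whereas Hist1h2ap had 23.2 CPM (6 UMIs) beside 220 and Hist1h2ac 3.87 CPM (1 UMI) beside 45.6. In CPM the excess over neutrophils was thus small for Hist1h1b and Hist1h1e and large for Hist1h2ap and Hist1h2ac. Single genes were not compared in UMIs per cell, where the excess is larger because neutrophils had fewer UMIs in total. The median in ConA+Veh was 2269 UMIs in neutrophils against 4721 in T or NK cells. The H2B gene Hist1h2bc ran the other way: it had 82.2 (22.4 to 210), 19.3 (6.28 to 45.1), 60.5 (22.2 to 132) and 23.9 (13.7 to 38.9) CPM in the neutrophils of Naive, ConA+Veh, ConA+TCDD and ConA+FICZ, from 4 to 16 UMIs each. In T or NK cells it had 4.46, 1.61, 2.17 and 1.31 CPM. No stem-loop was found in its annotated transcripts, which have up to 2 exons, and it was named after its values were seen.

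Genes that process histone mRNA or assemble histones onto DNA were measured for comparison, from a list of 17. Of the 16 with at least 30 UMIs in T or NK cells of ConA+Veh and Naive, 8 were at least 2-fold higher, against 8.61% of all genes, with a median log2 ratio of 0.93 beside -0.18. Slbp had 123 CPM in Naive, 193 in ConA+Veh, 191 in ConA+TCDD and 182 in ConA+FICZ. The H3-H4 chaperone gene Nasp had 99.4, 211, 218 and 209 CPM and the chaperone gene Asf1b 22.7, 62.8, 57.5 and 63.8 CPM. Npat, which drives histone gene transcription, had 12.0, 17.8, 14.6 and 11.1 CPM. Against ConA+Veh the list's median was -0.07 in ConA+TCDD and 0.01 in ConA+FICZ.

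Of the replacement histones, H3f3b gave more UMIs than the whole cluster in every library. H3f3b had 1866 CPM in Naive, 1605 in ConA+Veh, 1895 in ConA+TCDD and 1399 in ConA+FICZ T or NK cells, and H2afz had 573, 1526, 1397 and 1327 CPM. H2afx (67.8, 201, 145 and 179 CPM) and Cenpa, the centromeric H3 (36.6, 106, 67.4 and 76.6 CPM), were lowest in Naive and highest in ConA+Veh. The linker histone H1f0 had 21.0, 8.06, 8.00 and 6.55 CPM and was highest in Naive, as Hist1h1c was. Between ConA+Veh and Naive the 20 genes of the S phase list had a median of 1.52 and the 20 of the mitosis list 2.88. Against ConA+Veh the S phase genes had a median of -0.15 in ConA+TCDD and -0.07 in ConA+FICZ, and the mitosis genes -0.49 and -0.41, beside 0.03 and -0.40 for the histone cluster genes.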

How the data were processed

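The deposited values were whole-number UMI counts per gene and cell, which the authors made with Cell Ranger 3.0.2 on mm10, per the submitters' processing notes, from a 10x 5′ kit and Percoll-enriched liver mononuclear cells. The genes, lists and comparisons were chosen with earlier results of these data known. Cells were assigned to a type when its markers' mean score (markers capped at the 99th percentile) reached 0.1 and led the next type by 0.05, thresholds set after seeing marker values. No doublet caller was run. A stricter gate and a depth limit were tried in its place. Counts were summed over the cells of a class in a library and divided by their total UMIs. The ratios, for genes with at least 30 UMIs, had exact binomial intervals. They were run on simulated pooled Poisson counts, the model that the intervals assume. That simulation could not test the clustering of UMIs in few cells. Named genes were the 15 with the most UMIs, the 3 highest and 3 lowest Mki67 ratios, the 3 largest rises and falls per comparison among genes with at least 100 UMIs, and listed genes with as many. Stem-loops came from GENCODE M21 transcripts (GRCm38) and promoters from RefSeq (GRCm38.p6). Counting by Cell Ranger drops reads that match several genes, so near-identical histone genes can be undercounted. Scripts ran on Python 3.11.15 with pandas 2.3.3, scipy 1.17.1, numpy 2.4.6 and matplotlib 3.10.9.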

Additional observations from a re-analysis of the deposited data

Results flagged for a closer look

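In 4 instances a pair of cell classes moved in opposite directions between the same 2 libraries, and with 1 library per group none of these differences was tested. Between ConA+Veh and Naive the histone sum was higher in T or NK cells (log2 ratio 0.75) and in mononuclear phagocytes (0.39), while it was lower in B cells (-0.12). The T or NK value was 0.04 with the neutrophil CPM subtracted, which in Naive came from 10 UMIs in 23 neutrophils. The B-cell value turned to 0.13 without the cell with the most histone UMIs in each library. Between ConA+TCDD and ConA+Veh it was higher in erythroid cells (1.47), while it was lower in T or NK cells (-0.06) and B cells (-0.36). In the erythroid cells of ConA+TCDD 5 cells held 69.3% of the histone UMIs, and Mki67-negative erythroid cells had a log2 ratio of -0.13 (-0.53 to 0.27). A sample far from the others could not be looked for within groups of 1 library.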

How the results depend on the processing

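No paired analysis was possible because each group has 1 library, which also leaves no replicate to omit. The alternatives changed the 6 log2 ratios between libraries and the 4 log2 ratios between Mki67-positive and Mki67-negative T or NK cells as follows, given in the order ConA+Veh (over Naive), ConA+TCDD and ConA+FICZ (each over the vehicle library), and for the Mki67 ratios in the order Naive, ConA+Veh, ConA+TCDD and ConA+FICZ. Of 135 recomputed values 47 stayed within the counting interval, 79 moved outside it and 9 changed direction. Both subtractions of the neutrophil background, leaving out the top cell or the top 5 cells, grouping genes by annotated end at 30 UMIs and keeping only genes with little shared sequence were chosen after seeing the data.

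Thinning each cell to 1000 UMIs gave 1.18, -0.46 and -0.69 in T or NK cells, and 0.11 (reversed) for ConA+TCDD and -1.16 for ConA+FICZ in B cells. The Mki67 ratios, with Mki67 called again on the thinned counts, were 1.89, 0.77, 1.40 and 1.79. Leaving out cells above 3 times the median UMIs gave 1.30, -0.55 and -0.73 in T or NK cells, -0.10 and -1.40 for ConA+TCDD and ConA+FICZ in B cells, and Mki67 ratios of 0.17, 1.45, 2.25 and 3.11. The mean of each cell's CPM gave 1.20, -0.52 and -0.80 in T or NK cells, 0.29 (reversed), -0.11 and -1.36 in B cells, and 2.48, 0.82, 1.76 and 2.46. The mean UMIs per cell without depth correction gave 2.23, -0.24 and -0.48, in B cells 1.10 (reversed) and -0.51, and Mki67 ratios of 5.23, 2.94, 4.04 and 4.14. Subtracting the UMIs per Mki67-negative neutrophil from each cell gave 0.03 (reversed) for ConA+TCDD and -0.36 for ConA+FICZ in T or NK cells, -0.62, -0.16 and -0.28 in B cells, and 3.88, 2.80, 3.74 and 3.04. Subtracting the neutrophil CPM gave 0.04, 0.30 (reversed) and 0.36 (reversed) in T or NK cells and Mki67 ratios of 4.16 in Naive and 3.75 in ConA+FICZ, and gave no value where a level lay below that of neutrophils (B cells of ConA+Veh, Mki67-negative T or NK cells of ConA+Veh and ConA+TCDD). Only Mki67-positive cells gave -1.20 (reversed, from 20 Naive cells), 0.28 (reversed) and 0.00 in T or NK cells and -2.34, -0.04 and -0.19 in B cells. Only Mki67-negative cells gave 0.49, -0.70 and -1.19 in T or NK cells and -0.41 and -1.27 for ConA+Veh and ConA+FICZ in B cells. Without the member with the most UMIs, Hist1h2ap, the T or NK values were 0.89, -0.11 and -0.46 and the Mki67 ratios 2.56, 1.27, 2.20 and 2.57. Using only genes with little shared sequence gave 0.96 for ConA+Veh over Naive in T or NK cells and Mki67 ratios of 2.26, 1.24, 2.12 and 2.55. Without the top cell, ConA+Veh over Naive was 0.93 in T or NK cells and 0.13 (reversed) in B cells, and the Naive Mki67 ratio was 2.94. Leaving out cells with under 200 genes or over 10% mitochondrial UMIs gave -0.47 for ConA+TCDD in B cells and 1.63 for the ConA+Veh Mki67 ratio. Leaving ribosomal protein and mitochondrial genes out of the total gave -0.04 for ConA+Veh over Naive in B cells. Splitting by at least 2 S phase genes in place of Mki67 gave 1.30, 0.50, 1.35 and 1.38, and by at least 2 mitosis genes 2.93, 1.31, 2.29 and 2.28. The stricter gate moved none of the 10 values outside its interval. The cause of these changes was not tested. With a minimum of 100 in place of 30 UMIs, the T or NK histone genes with an interval below 0 between ConA+Veh and Naive numbered 2 in place of 7. At 30 UMIs, 19 had an interval above 0. The share of all genes with such intervals is not given, so these counts show the effect of the minimum only. Depth limits the low genes most: 32 of the 67 genes had under 100 UMIs in all cells.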
